A study of Mus musculus with 6 samples.

Results

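MHC class I molecules, the proteins that display peptides from inside the cell, and the proteins that supply and load those peptides were examined through 10 genes, H2-Q4, H2-K1, H2-D1, H2-T23, B2m, Tap1, Tap2, Tapbp, Psmb8 and Bst2. Every probe set whose gene symbol field held one of these symbols was taken, which gave 12 of the 35557 probe sets and 10 of the 21335 gene symbols on the array. Of the 12 probe sets, 7 carried 1 symbol and 5 were shared with another gene. H2-Q4 was picked because its signal differed between the genotypes in these same arrays, so its values are a description and carry no test. The other genes share the class I pathway or its control by interferon, and were chosen with earlier results of these arrays known.

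RNA came from yolk sacs of individual mouse embryos at embryonic day 9.5 and was measured on Affymetrix Mouse Gene 1.0 ST arrays. There were 3 arrays of wild-type littermates and 3 of embryos homozygous for a gene-trap allele of Tnrc6a (GW182gt/gt); no treatment is named for either group. Tnrc6a encodes GW182, the partner of Argonaute through which microRNAs silence their targets. Both genotype labels also carry the word mixed, with no explanation in the labels, and no strain is given. This matters for class I genes, which differ in sequence between mouse strains and resemble each other closely within a strain.

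Class I molecules consist of a polymorphic heavy chain, a shared light chain (beta-2-microglobulin) and a peptide. The peptide is cut by the proteasome, pumped into the endoplasmic reticulum by the TAP1-TAP2 transporter and placed in the heavy chain with the help of tapasin. Interferons raise the transcription of most of these genes together. Early embryonic tissues are known for low class I display, while endothelium, blood cells and maternal decidua display more.

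The level of Tnrc6a was checked first. It read 8.40, 7.62 and 8.29 on a log2 scale in wild types 1 to 3, and 5.33 and 5.20 in mutants 2 and 3. The library labelled mutant 1 read 7.81, inside the wild-type range, so its Tnrc6a level goes against its label. Array medians ran from 5.19 to 5.22. Wild type 2 carried the highest level of trophoblast, decidua and parietal endoderm markers, with a mean over 14 tested genes of 0.78 above the wild-type mean on the log2 scale. Xist was high in wild type 1, the library labelled mutant 1 and mutant 3, so both sexes occurred in each genotype. For the tested probe sets of the 10 genes and the counts over all probe sets, results that move with these libraries are given with and without them. Differences of other genes and of the lists are given over all 6 arrays only.

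H2-Q4 read higher in the mutants on every array, and B2m did so too. The heavy chains H2-K1 and H2-D1, the tapasin gene and the TAP genes overlapped between genotypes, and Bst2 varied more within the wild types than between genotypes. Of the 12 probe sets, 11 passed the filter on dim signals (a mean log2 signal of at least 4.29) and were tested with limma among 16387 probe sets; that of Psmb8 did not pass. Without H2-Q4, 0 of the 10 tested probe sets passed an adjusted p of 0.05, as did 0 (0%) of all 16387. At an unadjusted p under 0.05 there was 1 of the 10, B2m, against 3.53% (579) of all tested probe sets, or 2.25% with the higher signal in the mutants, as B2m has, and 1.28% with the lower. The methods' t-test put 627 of all probe sets under its unadjusted threshold and 0 after Benjamini-Hochberg adjustment. Non-overlapping genotypes occurred in 1 of the 10, again B2m, against 8.55% of all tested (5.17% higher and 3.38% lower in the mutants). The median difference, mutant minus wild type, over the 10 was −0.014 on the log2 scale, beside 0.0063 over all tested probe sets, with 4 higher and 6 lower. With 1 probe set in 10, nothing can be read from these shares about the genes as a group.

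**Figure D1:**
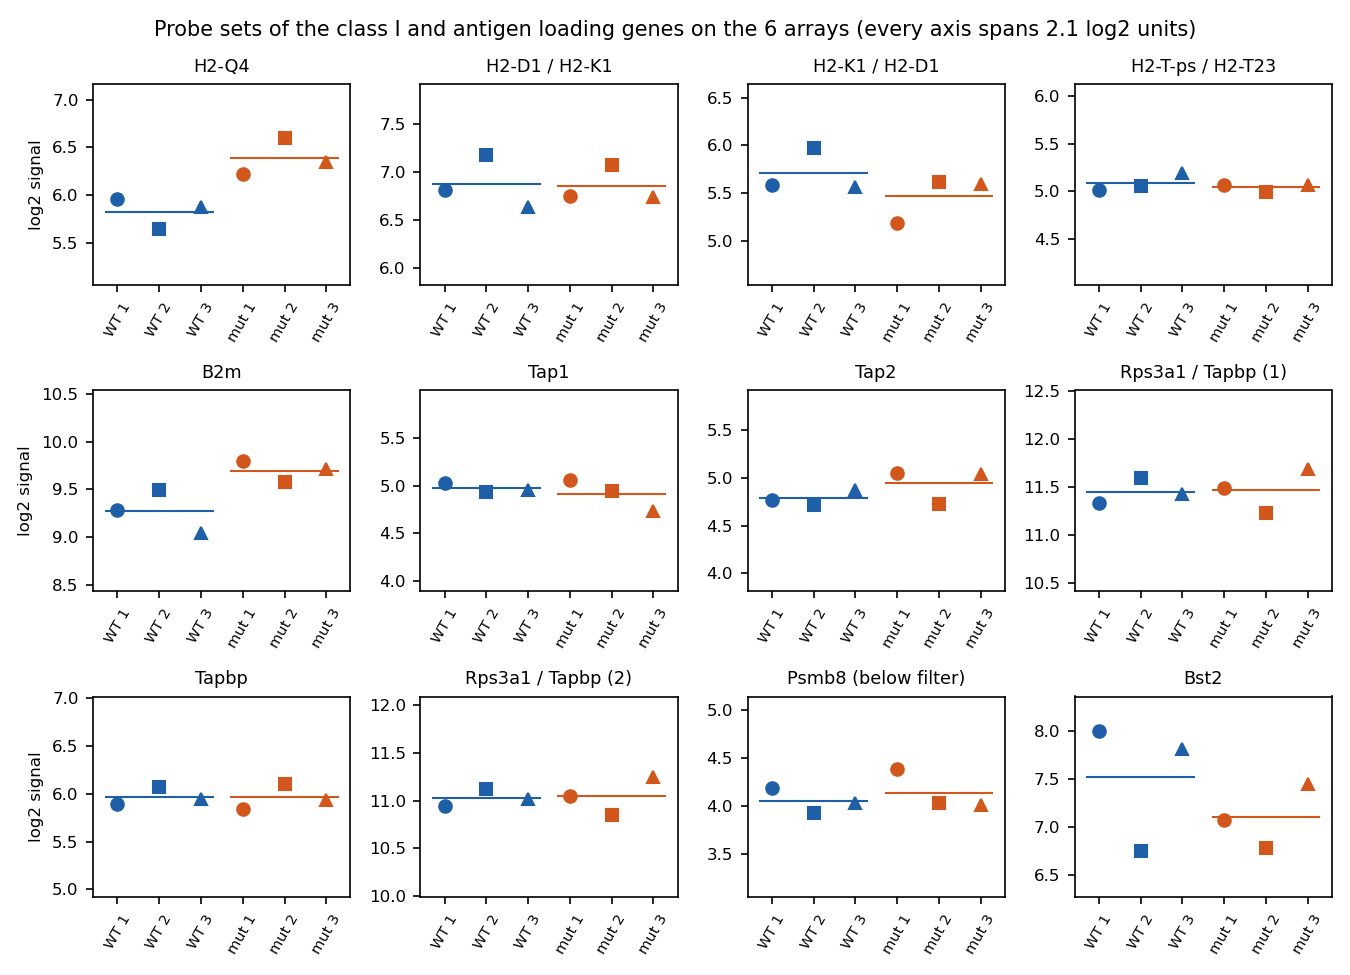
Log2 signal of each of the 12 probe sets on the 6 arrays, with blue for wild type, orange for mutant, the same symbol for the same replicate number, and lines at the group means; the vertical axes differ in position and share one span. The groups lie apart for H2-Q4 (highest wild type 5.96, lowest mutant 6.22) and B2m (9.49 and 9.58), and overlap in the other panels.

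Among the heavy chains, H2-Q4 encodes a class Ib molecule of the Q region, a cluster of class I genes with narrower expression than H2-K1 and H2-D1. Its signal was 5.96, 5.65 and 5.87 in wild types 1 to 3. Mutants 2 and 3 gave 6.60 and 6.35, and the library labelled mutant 1 gave 6.22. The means were 5.83 ± 0.16 (SD, n = 3) and 6.39 ± 0.19 (SD, n = 3), a difference of 0.56 on the log2 scale or 1.47-fold. The lowest mutant lay 0.26 above the highest wild type, a gap smaller than the range of the wild types (0.31). The library labelled mutant 1, whose Tnrc6a level is that of wild type, was the mutant closest to the wild types, and the difference was 0.65 without it and 0.46 without mutant 2.

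The promoter of H2-Q4 is shown because it holds letters of enhancer A and of the interferon element, known in class I promoters as sites for NF-kappaB and for interferon regulatory factors. The 250 bases before the RefSeq start of the gene are given (GRCm38.p6, chr17:35379367-35379616, plus strand), printed 5′ to 3′ with the searched motifs in capitals.
H2-Q4: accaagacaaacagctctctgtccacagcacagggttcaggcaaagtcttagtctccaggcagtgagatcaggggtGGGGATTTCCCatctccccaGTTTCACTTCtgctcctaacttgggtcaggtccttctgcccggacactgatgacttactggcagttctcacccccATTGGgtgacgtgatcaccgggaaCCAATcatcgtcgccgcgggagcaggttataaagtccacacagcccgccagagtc

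The first capitals match enhancer A of class I promoters (GGGGATTNCCC), 174 to 164 bases before the start. The second, at 154 to 145, match the class I interferon element, searched as GAAGTGAAAC and read here from the opposite strand. The last are CCAAT boxes on either strand. The motifs were chosen from knowledge of class I promoters after these sequences had been read, with the letters of both class I elements taken from H2-Q4 and, for the N, H2-K1, and were searched on both strands. Enhancer A occurred in 24 of 32851 RefSeq promoters of the same length (0.0731%) and the class I interferon element in 36 (0.11%). Both were present in H2-Q4, H2-K1 and H2-D1, and CCAAT in 33.8% of promoters and in 7 of the 9 genes with a promoter in the table. Tap2 has no entry.

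A 45-base stretch over both elements compares H2-Q4 with the classical heavy chains and with H2-Q6, another Q-region gene described below, with the motifs again in capitals. The stretches lie at chr17:35379438-35379482 (plus strand), chr17:34000419-34000463 (minus strand), chr17:35262918-35262962 (plus strand) and chr17:35424672-35424716 (plus strand).
H2-Q4: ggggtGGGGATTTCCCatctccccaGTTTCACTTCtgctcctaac
H2-K1: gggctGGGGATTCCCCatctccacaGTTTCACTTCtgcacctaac
H2-D1: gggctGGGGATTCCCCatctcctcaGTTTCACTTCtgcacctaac
H2-Q6: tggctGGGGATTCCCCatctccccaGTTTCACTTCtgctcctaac

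Over the 250 bases the H2-Q4 promoter matched that of H2-Q6 at 78.2% of aligned positions and that of H2-D1 at 75.9%. Among the genes shown with both elements, the probe sets shared by H2-K1 and H2-D1 overlapped between genotypes, whereas that shared by H2-Q6 and H2-Q8 did not. Any link between the elements and the genotype pattern was not tested. A match is a description of letters and says nothing of binding in yolk sac.

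H2-K1 and H2-D1 encode the classical heavy chains, the main presenters of peptide to CD8 T cells. No probe set read either gene alone: both of theirs listed H2-K1, H2-D1 and LOC547349 together, so the genes cannot be told apart here. The probe set that lists H2-D1 first read 6.81, 7.18 and 6.63 in wild types 1 to 3, 7.07 and 6.75 in mutants 2 and 3, and 6.75 in the library labelled mutant 1. Wild type 2 and mutant 2 were the high libraries, and the genotypes overlapped with a difference of −0.020 (95% interval −0.39 to 0.35; exact permutation p = 0.9, limma adjusted p = 0.999). The probe set that lists H2-K1 first read 5.59, 5.97 and 5.56 in wild types 1 to 3, 5.62 and 5.59 in mutants 2 and 3, and 5.19 in the library labelled mutant 1. Wild type 2 was again the highest, the library labelled mutant 1 stood lowest, and the difference was −0.24 (95% interval −0.61 to 0.13; exact permutation p = 0.6).

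Without wild type 2 the difference at the probe set listing H2-D1 first became 0.13, and that at the other −0.11. With the library labelled mutant 1 left out as well they became 0.19 and 0.030, and neither passed an unadjusted limma p of 0.05. Wild type 2 also had the highest mean of the trophoblast, decidua and parietal endoderm markers, at 0.78, a list of which 14 of 24 genes on the array passed the filter, and mutant 2 followed at 0.25. The value of mutant 2 rests on Prl8a2, a decidual prolactin-family gene that read 9.11 there and 7.44 in wild type 2; elsewhere it ran from 3.51 to 4.09. Without this gene, a choice made after its values were seen, wild type 2 stood at 0.66 and mutant 2 at −0.043, beside −0.076 in mutant 3. The genes also differed in which mutant was higher: Plac1, a placental gene, read 7.39 in mutant 2 and 9.10 in mutant 3, and the laminin gene Lama1 8.02 and 8.42, while Prl4a1, another prolactin-family gene, read 5.14 and 4.12. The part of these markers in the class I values was not tested.

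H2-T23 encodes Qa-1, a heavy chain that presents leader peptides of other class I chains to inhibitory receptors of natural killer cells. Its probe set is shared with H2-T-ps, listed beside it in the annotation, and was steady over the arrays, at 4.999 to 5.20. The difference was −0.045 (95% interval −0.24 to 0.15; exact permutation p = 0.6), with overlapping genotypes.

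**Figure D2:**
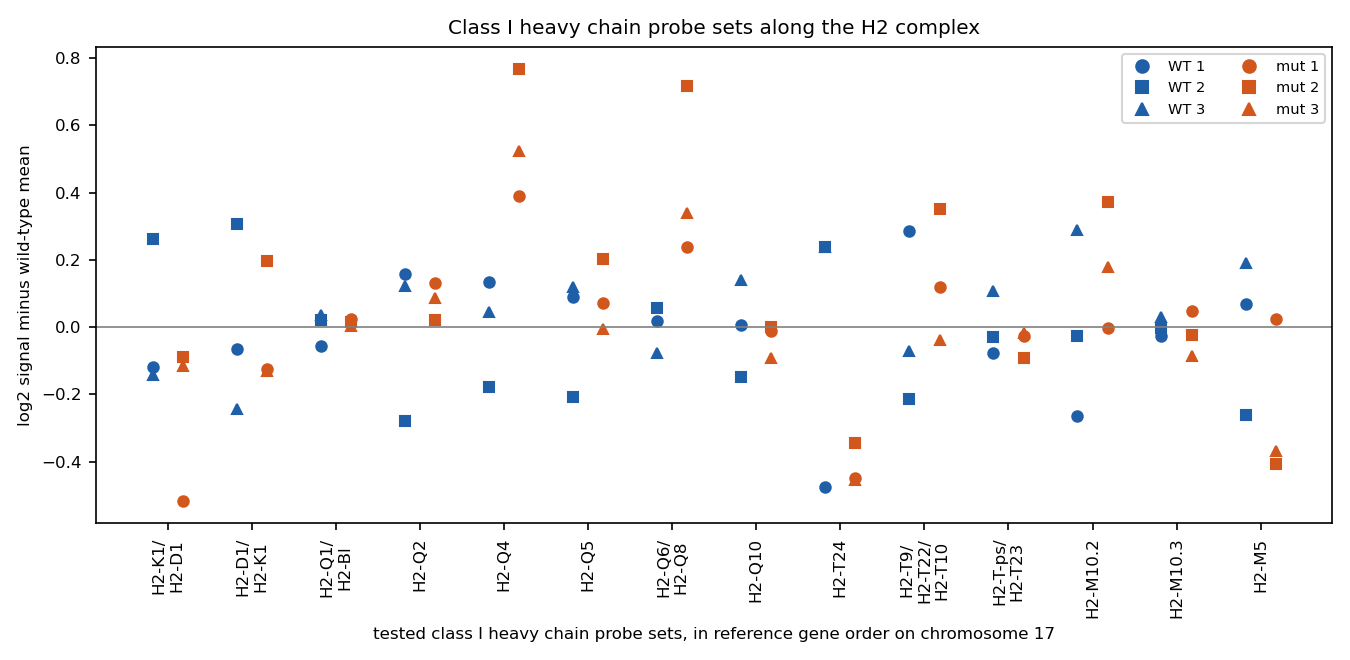
Log2 signal minus the wild-type mean at the 14 tested class I heavy chain probe sets, placed in reference gene order along chromosome 17, with wild type in blue at the left and mutant in orange at the right of each position. H2-Q4 and the probe set shared by H2-Q6 and H2-Q8 show 3 mutants above the wild types, whereas H2-Q5 between them and H2-Q2 overlap.

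The 27 probe sets of class I heavy chains on the array included 14 that were tested, of which 6 listed several genes. In 7 the mutant mean was higher and in 7 lower. Leaving out H2-Q4, which was chosen for its separation, the genotypes did not overlap in 1 of 13, against 8.55% of all tested probe sets (5.17% higher in the mutants). It was the probe set shared by H2-Q6 and H2-Q8, which lies close by in the Q region. It read 4.86, 4.90 and 4.76 in wild types 1 to 3, 5.56 and 5.18 in mutants 2 and 3, and 5.08 in the library labelled mutant 1. As for H2-Q4, mutant 2 was highest and the library labelled mutant 1 lowest of the mutants, with a difference of 0.43 (SE 0.13). This probe set was named after its values were seen, because it lies apart by genotype. Whether both probe sets read one transcript through their similar sequence cannot be told from these data.

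The pattern did not extend to the neighbours of H2-Q4 whose probe sets listed 1 gene. H2-Q5, between both probe sets in gene order, differed by 0.089 (95% interval −0.17 to 0.35) and H2-Q2 by 0.079 (95% interval −0.22 to 0.37), with overlapping genotypes. Neighbours were taken from tested probe sets with 1 symbol, 3 on each side. Around H2-Q4 the others were Atp6v1g2 (0.14), Ddx39b (0.020), H2-Q10 (−0.035) and Tcf19 (0.023), all with overlapping genotypes. This rule left out the probe set shared by H2-Q6 and H2-Q8 (0.43, genotypes apart), which lies nearer than H2-Q10 and Tcf19. It also left out the probe set shared by H2-Q1 and H2-Bl (0.014, overlapping genotypes). Around H2-K1 the nearest genes ran from −0.24 at H2-Ke6 to 0.030 at Ring1, and around H2-T23 from −0.42 at H2-T24 to 0.098 at Prr3. Over 58 tested genes of the H2 region and its flank the median difference was 0.00089, with 30 higher and 28 lower. Ppil1 and Glo1, on the same chromosome outside the class I clusters, had the lowest unadjusted p of these, at −0.59 and −0.70. The latter is from one of a pair of Glo1 probe sets. The other, brighter one differed by −0.66 with overlapping genotypes, and the limma adjusted p was 0.999 for all of them. An unadjusted limma p under 0.05 occurred in 1 of the 58 with a higher mutant mean and in 3 with a lower one, against 2.25% and 1.28% of all tested probe sets.

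B2m encodes beta-2-microglobulin, the light chain that every class I heavy chain needs to reach the cell surface, on chromosome 2. Its signal was 9.28, 9.49 and 9.04 in wild types 1 to 3. Mutants 2 and 3 gave 9.58 and 9.71, and the library labelled mutant 1 gave 9.80. The lowest mutant lay 0.090 above the highest wild type, a gap smaller than the range of the wild types (0.45). The means were 9.27 ± 0.22 (SD, n = 3) and 9.70 ± 0.11 (SD, n = 3), so that the mutants read 1.34-fold higher (log2 difference 0.42, SE 0.13, 95% interval 0.13 to 0.72). limma gave an unadjusted p of 0.0112 and an adjusted p of 0.999, and the two-sided permutation p over all exact regroupings was 0.1, the smallest that 3 against 3 arrays allow. B2m therefore failed the correction over all probe sets.

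The order of the mutants was not that of H2-Q4. The library labelled mutant 1 was highest for B2m and lowest of the mutants for H2-Q4, and without it the B2m difference was 0.37 (limma unadjusted p of 0.0395). Leaving out 1 array at a time gave 0.31 (without wild type 3) to 0.53 (without wild type 2), and the unadjusted p was under 0.05 in 17 of 17 alternatives, by limma or by the methods' t-test, with a lowest adjusted p of 0.560 among them.

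The B2m promoter is shown for comparison with that of H2-Q4. The 250 bases before its start (GRCm38.p6, chr2:122147437-122147686, plus strand) held no match to enhancer A or to the class I interferon element as searched. They held the core of the interferon-stimulated response element (GAAANNGAAA), which occurs in 2.98% of promoters, 139 to 130 bases before the start, and a CCAAT box on the opposite strand, both in capitals.
B2m: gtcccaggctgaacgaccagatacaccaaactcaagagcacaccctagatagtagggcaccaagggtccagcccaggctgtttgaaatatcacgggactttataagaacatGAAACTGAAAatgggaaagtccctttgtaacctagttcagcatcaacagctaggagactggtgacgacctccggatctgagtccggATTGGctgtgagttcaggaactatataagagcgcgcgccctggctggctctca

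The genes with patterns most like H2-Q4 over the 6 arrays, among 15434 other tested probe sets with 1 symbol, were Ttc32 (Pearson r = 0.996), Olfr149 (0.991), Klhl31 (0.990), Slc19a2 (0.985) and Zfp36 (0.981). Ttc32, the most alike, ran from 4.72 to 4.93, a narrower span than that of H2-Q4. Those most like B2m were Pip5k1a (0.979), Trappc2l (0.978), Rasal2 (0.973), Tnks (0.970) and Rtl1 (0.969). H2-Q4 and B2m correlated at r = 0.55. With 6 points and so many probe sets, these coefficients describe the arrays and nothing more.

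Tap1 and Tap2 encode the partner chains of the transporter that moves peptides into the endoplasmic reticulum. Tap1 read 5.03, 4.93 and 4.96 in wild types 1 to 3, 4.95 and 4.74 in mutants 2 and 3, and 5.06 in the library labelled mutant 1. Mutant 3 was low and the rest lay close together, for a difference of −0.057 (95% interval −0.29 to 0.18; exact permutation p = 0.8). Tap2 read 4.76, 4.72 and 4.87 in wild types 1 to 3, 4.73 and 5.04 in mutants 2 and 3, and 5.05 in the library labelled mutant 1. Mutant 2 lay with the wild types while the others were higher, and the difference was 0.16 (95% interval −0.099 to 0.41; exact permutation p = 0.3), or 0.26 (limma unadjusted p of 0.0284, adjusted p = 1.00) without mutant 2. The transporter chains thus ran in opposite directions in mutant 3.

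Tapbp encodes tapasin, which holds empty class I heavy chains beside the transporter. Its own probe set read 5.90, 6.08 and 5.94 in wild types 1 to 3, 6.10 and 5.94 in mutants 2 and 3, and 5.84 in the library labelled mutant 1. The genotypes overlapped throughout, with a difference of −0.0094 (95% interval −0.24 to 0.22; exact permutation p = 0.9). A further pair of probe sets listed Tapbp together with Rps3a1, a ribosomal protein gene, and differed by 0.015 and 0.016. They ran over 11.2 to 11.7 and 10.9 to 11.2 and were lowest in mutant 2, the library in which the tapasin probe set was highest, so they are not read as tapasin here.

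Psmb8 encodes the immunoproteasome subunit that replaces Psmb5 and shapes peptides for class I. It read 4.19, 3.92 and 4.03 in wild types 1 to 3, 4.03 and 4.01 in mutants 2 and 3, and 4.39 in the library labelled mutant 1. The mean over the arrays was below the filter limit, and only the library labelled mutant 1 lay above it. The difference of 0.093 was not tested. Psmb9, the immunoproteasome subunit encoded beside Tap1, did pass the filter and differed by −0.047. Psmb5 itself differed by −0.11 (exact permutation p = 0.2). In 7 of 7 genes of the constitutive proteasome list the mutant mean was lower (median −0.091), against 52.4% of all probe sets with a higher one. Of the 7, 0 had an unadjusted limma p under 0.05, against 3.53% of all tested. The mean of these genes was lower than in the wild types in mutant 2 and the library labelled mutant 1, at −0.21 in each, and highest of all 6 arrays in mutant 3, at 0.18.

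**Figure D3:**
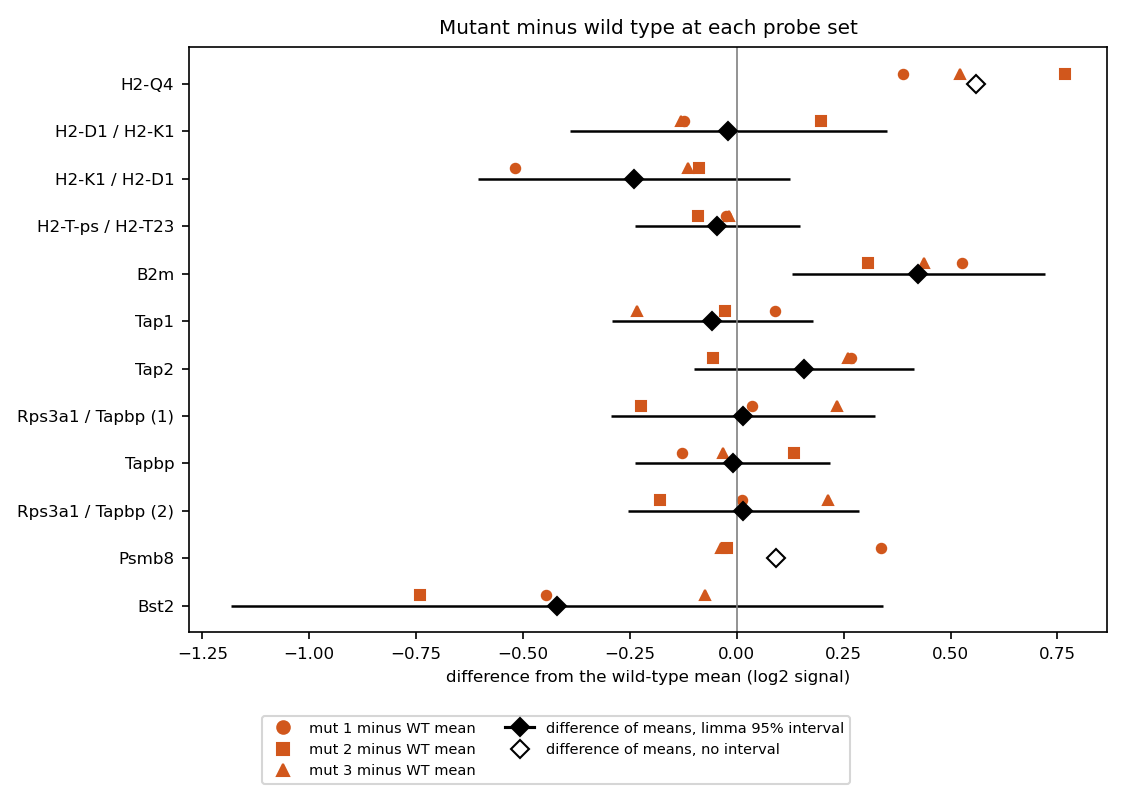
Mutant minus wild-type difference of the means at each probe set (black diamonds, with limma's 95% intervals where the probe set was tested and not chosen for its pattern) and each mutant array minus the wild-type mean (orange). The interval of B2m, 0.13 to 0.72, excludes 0 before adjustment, and that of Bst2 is the widest, −1.18 to 0.34.

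Bst2 encodes tetherin, an interferon-induced membrane protein that holds budding viruses on the cell, and lies outside the H2 complex, on chromosome 8. It read 8.004, 6.75 and 7.81 in wild types 1 to 3. Mutants 2 and 3 read 6.78 and 7.45, and the library labelled mutant 1 read 7.07. Wild types 1 and 3 were the highest libraries and wild type 2 the lowest of the 6, so that the wild types alone spanned 1.26 on the log2 scale. The means were 7.52 ± 0.68 (SD, n = 3) and 7.10 ± 0.33 (SD, n = 3), a difference of −0.42 (95% interval −1.18 to 0.34; exact permutation p = 0.4, limma adjusted p = 0.999).

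This value rests on single libraries. Without wild type 2 the difference was −0.81 (limma unadjusted p of 0.00456, adjusted p = 0.975), without wild type 1 −0.18 and without wild type 3 −0.28. It was −0.59 without mutant 3 and −0.26 without mutant 2. Wild type 2, the lowest library for Bst2, was the highest for the trophoblast, decidua and parietal endoderm markers and for the probe set that lists H2-D1 first. Mutant 2, the next lowest for Bst2, stood above mutant 3 in those markers mainly through Prl8a2. The part of these markers in the Bst2 values was not tested. With the library labelled mutant 1 left out beside wild type 2 it was −0.80.

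A search of the 250 bases before the Bst2 start (GRCm38.p6, chr8:71537473-71537722, minus strand) found the interferon-stimulated response element core as a pair of overlapping matches, 130 to 121 and 124 to 115 bases before the start, as against the single match in B2m. The stretch is printed to set these matches beside that of B2m. The core also occurred in H2-T23, 124 to 115 bases before the start on the opposite strand, so that 3 of the genes held it, and H2-Q4 did not as searched.
Bst2: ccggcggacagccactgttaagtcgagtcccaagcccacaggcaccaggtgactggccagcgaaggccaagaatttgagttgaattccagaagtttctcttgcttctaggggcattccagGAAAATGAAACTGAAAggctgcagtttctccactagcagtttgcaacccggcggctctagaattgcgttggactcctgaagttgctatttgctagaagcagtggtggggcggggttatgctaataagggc

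In the library labelled mutant 1 B2m was at its highest and Bst2 differed from its wild-type mean by −0.45.

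In the list of peptide supply and loading, 16 of 17 genes on the array were tested, 6 were higher and 10 lower in the mutants, and the median was −0.024. The trimming peptidase gene Erap1 had the lowest unadjusted limma p of these (0.0648), at 0.45. It read 4.70, 4.99 and 4.66 in wild types 1 to 3, 5.55 and 5.38 in mutants 2 and 3, and 4.76 in the library labelled mutant 1. Mutants 2 and 3 were high and the library labelled mutant 1 was among the wild types. Non-overlapping genotypes occurred in 1 of the 16, against 8.55% of all tested probe sets (3.38% lower in the mutants). It was Psme3, a proteasome activator subunit, lower in the mutants by 0.17, with a gap of 0.034 between the genotypes.

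Transcription factors of class I genes had 8 of 12 tested genes higher, against 52.4% of all tested probe sets, and a median of 0.039. Nlrc5, the co-activator that switches on class I genes together with B2m, Tap1 and Psmb9, differed by 0.21 (SE 0.090; exact permutation p = 0.1) at the probe set with the lowest p and by 0.15 (SE 0.12; exact permutation p = 0.4) at its brightest, where the genotypes overlapped. Nlrc5 had 12 tested probe sets, which ran from −0.026 to 0.21 with a median of 0.038. The genotypes did not overlap in 1 of them, against 8.55% of all tested probe sets. Rela, the NF-kappaB subunit p65, differed by 0.11.

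Receptors and signalling genes of the interferons had 9 of 12 tested genes higher, against 52.4% of all tested probe sets, and a median of 0.050. An unadjusted limma p under 0.05 occurred in 1 of the 12, against 3.53% of all tested (2.25% higher in the mutants). With 1 gene in 12, nothing can be read from this share about the list. It was Ifngr2, a chain of the interferon-gamma receptor (limma unadjusted p of 0.0349, adjusted p = 0.999). Ifngr2 read 7.38, 7.79 and 7.42 in wild types 1 to 3, 7.97 and 8.07 in mutants 2 and 3, and 7.68 in the library labelled mutant 1. Wild type 2 thus lay above the lowest mutant. The feedback inhibitor gene Socs1 differed by 0.15.

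Interferon-stimulated genes, leaving out the 10 genes above, were tested for 23 of 40 on the array, with 15 higher, 8 lower and a median of 0.031. Of the 23, 0 had an unadjusted limma p under 0.05, against 3.53% of all tested probe sets. Non-overlapping genotypes occurred in 1 of the 23, against 8.55% of all tested (5.17% higher in the mutants). It was the antiviral kinase gene Eif2ak2, at 6.64 to 6.85 in the mutants and 6.36 to 6.60 in wild type (difference 0.23, exact permutation p = 0.1). Ifi35 went the other way, at −0.28 (exact permutation p = 0.3). Members of this list differed in whether they reached the filter limit, which is a percentile of mean signal and not a call of detection. Ifit1, Ifit3 and Mx1 lay below the filter limit on all 6 arrays, at 3.19 to 3.56, 3.30 to 3.43 and 2.16 to 2.55, while Rsad2 (5.02 to 5.93) and Oasl1 (5.52 to 5.83) were above it, with overlapping genotypes. These 5 were named after their values were seen.

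**Figure D4:**
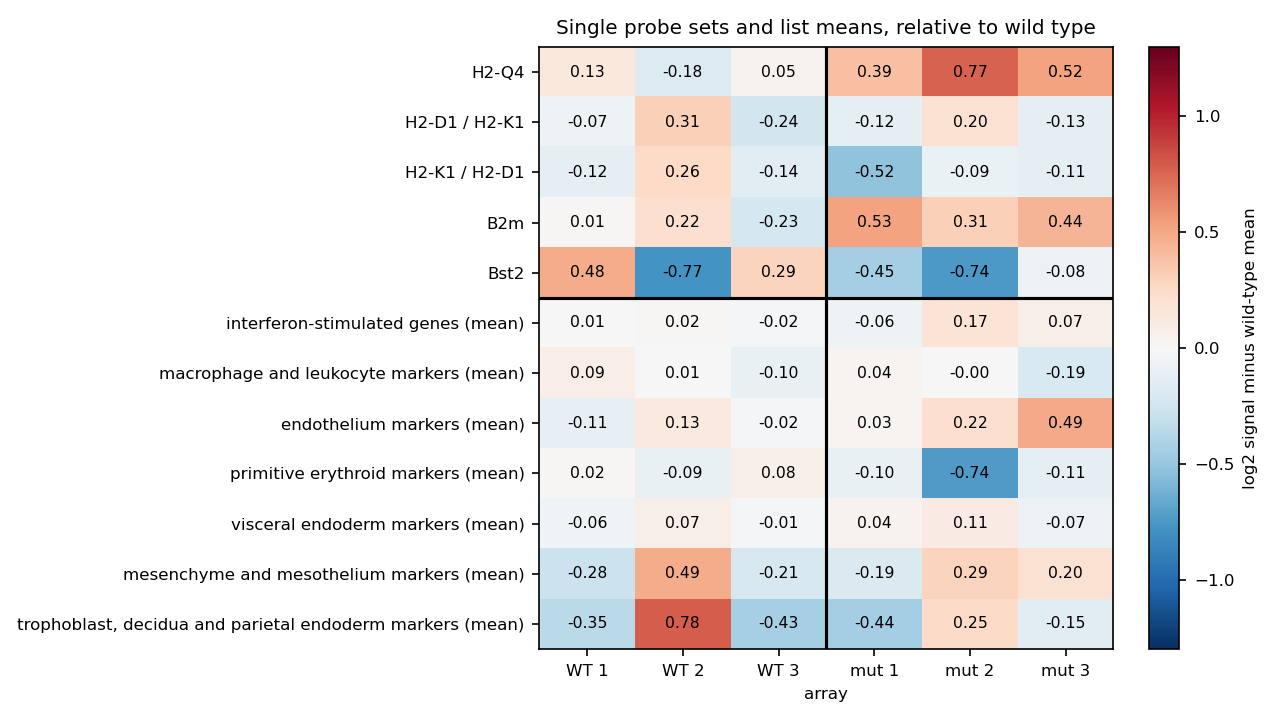
Log2 signal minus the wild-type mean on each array for 5 probe sets (upper rows) and for the mean of the tested genes of 7 lists (lower rows), with red above and blue below the wild-type mean. Wild type 2 stands out in the trophoblast, decidua and parietal endoderm row (0.78) and mutant 2 in the primitive erythroid row (−0.74).

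Lists of cell types were set beside these values, since fewer cells of a type and less RNA per cell cannot be told apart in whole tissue. Endothelium markers were higher in the mutants for 16 of 16 genes (median 0.22), against 52.4% of all probe sets, and had means of 0.22 and 0.49 in mutants 2 and 3 and 0.034 in the library labelled mutant 1, against −0.11 to 0.13 in wild type. Among them the receptor genes Tie1 and Kdr differed by 0.28 and 0.40, and 4 of the 16 had an unadjusted limma p under 0.05 and a higher mutant mean, against 2.25% of all tested, with 0 passing after adjustment. B2m was highest in the library labelled mutant 1. Primitive erythroid markers were lower for 12 of 12 genes (median −0.32), and mutant 2, where H2-Q4 was highest, held most of that, at −0.74 against −0.11 and −0.098 in the other mutants. In this list 2 of the 12 had an unadjusted limma p under 0.05 and 4 did not overlap, all lower, against 1.28% and 3.38% of all tested. Among these the embryonic globin gene Hbb-y differed by −0.25 and the haem synthesis gene Alas2 by −0.53. The part of endothelial or erythroid cells in the H2-Q4 and B2m values was not tested.

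Macrophage and leukocyte markers, of which 9 of 23 genes on the array were tested, had a median of −0.068, with 3 higher and 6 lower. Their means ran from −0.19 to 0.036 in the mutants and from −0.095 to 0.090 in wild type. The pan-leukocyte gene Ptprc differed by −0.19 and the macrophage gene Cd68 by −0.25. Mrc1, the brightest tested macrophage marker, read 7.64 to 8.35 and differed by 0.10, with overlapping genotypes. The macrophage markers Adgre1 and Cd163 lay below the filter limit on every array, at 2.94 to 3.18 and 2.83 to 3.13. Visceral endoderm markers, from the epithelium that forms the bulk of the tissue, had a median of 0.0079 with 10 of 17 higher, among them the apolipoprotein genes Apob (0.15) and Apoa4 (0.13). Mesenchyme and mesothelium markers had a median of 0.076 with 12 of 17 higher, and were highest in wild type 2, at 0.49. Among these, Wt1, a mesothelial transcription factor, differed by −0.21 and Foxf1, a mesodermal one, by 0.24.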

How the data were processed

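The authors' deposited table holds log2 values per probe set; MAS5 is the only tool in the submitters' processing notes, and for background, summary, normalization and scale nothing further is stated in the labels. The log2 scale was inferred from the values, which were used as deposited. Names came from GEO's platform annotation, with 1 symbol for 21797 probe sets, several for 1613 and none for 12147, and genes were ordered by RefSeq (GRCm38.p6), which also gave the promoters.

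Named probe sets whose mean reached the 30th percentile (4.29) were tested with limma 3.58.1 in R 4.3.3, mutant minus wild type, with Benjamini-Hochberg adjustment over 16387 probe sets. The fit was also run on simulated data. The differences added there were larger than any seen for the 10 genes, so that run does not show whether differences of their size would be found. Precision is limited by the number of arrays, with a median standard error of 0.10. Single values had exact two-sided permutation tests. The genes and lists were chosen with earlier results of these data known. Named were all 10 genes, the 2 with the lowest p in each list (a gene once), non-overlapping genes of the class I lists, neighbours and the 5 most alike in pattern. Further genes were named outside this rule, among them Psmb9, Mrc1, Adgre1, Cd163, Cd74, H2-Aa and some of the trophoblast markers. Each list took a gene's brightest tested probe set. Alternatives were other normalizations, filters, variance models, array weights, Xist as a covariate, a block on the replicate number, the methods' t-test and arrays left out; leaving out both the library labelled mutant 1 and wild type 2 was added after the data were seen.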

Additional observations from a re-analysis of the deposited data

How the results depend on the processing

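The number of genes past the adjusted threshold stayed 0 in 16 of 17 alternatives, with 395 to 1372 probe sets at an unadjusted p under 0.05 (1372 without mutant 3 and 1086 with array weights); with the library labelled mutant 1 and wild type 2 both left out it was 1, Tnrc6a itself, whose level was the reason for leaving out the former. The count at an unadjusted p among the 10 tested probe sets was 2 without those libraries (B2m and Bst2) and 1 to 2 when single arrays were left out (B2m and Bst2 without wild type 2, B2m and Tap2 without mutant 2). Their median ran from −0.047 to 0.068 over 18 alternatives. H2-Q4 (0.46 to 0.65), B2m (0.31 to 0.53), Bst2 (−0.81 to −0.18) and Tap2 (0.070 to 0.26) kept their direction throughout. The probe sets with the smallest differences changed sign. With array weights, and then with Xist as a covariate, the probe set listing H2-D1 first gave 0.045 and 0.053, Tapbp 0.019 and 0.044, and the probe sets shared with Rps3a1 −0.034 and −0.015, and −0.033 and −0.013. Without both libraries named above these were 0.19 for H2-D1, 0.10 for Tapbp and 0.030 for the probe set listing H2-K1 first. When single arrays were left out, the ranges were −0.14 to 0.13 for H2-D1, −0.080 to 0.050 for Tapbp, −0.094 to 0.13 and −0.084 to 0.11 for the probe sets shared with Rps3a1, −0.084 to 0.0078 for H2-T23 and −0.13 to 0.031 for Tap1. The cause was not tested. Same-numbered arrays correlated in their deviations from the group means at 0.45, 0.15 and −0.11, against −0.45 to 0.24 for arrays with different numbers. Deviations within so small a group constrain each other, so these values cannot decide whether the numbers pair the samples. With the replicate block 0 probe sets passed the adjusted threshold, and 727 had an unadjusted p under 0.05 against 579. Among the 10, 1 did (B2m, limma unadjusted p of 0.0205), and the median stayed −0.014.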

Other observations

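Class II molecules, which present peptides to CD4 T cells, were read by 9 single-symbol genes of a fixed list on the array, of which 3 passed the filter. H2-Ab1, a class II beta chain, differed by 0.17 (SE 0.086; exact permutation p = 0.2), with 4.90 to 4.98 in wild type and 4.98 to 5.17 in the mutants, and H2-Oa, a chain of the class II loading inhibitor, by −0.13. The invariant chain gene Cd74, which every class II molecule needs, lay below the limit on all 6 arrays, at 3.03 to 3.67, as did the alpha chain gene H2-Aa, at 2.21 to 2.91.

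H2-T24, a class I gene of the T region, lay at separate levels within the wild types. It read 5.04 in wild types 2 and 3 and 4.33 in wild type 1, while the library labelled mutant 1 and mutants 2 and 3 read 4.36, 4.46 and 4.35. Among the 6 tested genes in the list of other heavy chains its unadjusted limma p was lowest (0.0619), and H2-M5, at −0.25, came next. In the H2 region, Ddr1, a collagen receptor gene, was higher in the mutants by 0.30 with non-overlapping genotypes, and Dxo, a decapping enzyme gene, lower by 0.23. Of the 58 tested genes of this region and its flank, 3 did not overlap with the higher signal in the mutants and 3 with the lower. Over all tested probe sets these shares were 5.17% and 3.38%, so nothing is read from them about the region. In the marker list of bordering tissues, Synb, a syncytin of the placenta, read lower in the mutants by 0.32, at 4.78 to 5.21 against 5.27 to 5.33. Non-overlapping genotypes with the lower signal in the mutants occurred in 1 of the 14 tested genes of that list, against 3.38% of all tested probe sets. With 1 gene in 14, nothing can be read from this share about the list.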
